A study of Homo sapiens with 18 samples.

Results

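EPZ5676 was compared with its solvent DMSO in melanoma cells with high levels of both NGFR and EGFR. The members of the comparison were all libraries that the sample labels give as NGFR/EGFR-high, which made 6 of the 18 libraries of the series, 3 per treatment. WM989 is an established human melanoma line with an activating BRAF mutation. Its cells were kept in a low-serum medium (Tu2%) with either 4 µM EPZ5676 or DMSO for 7 days, and no other agent is named. Poly(A)-selected RNA was sequenced from cells with high NGFR and EGFR, from cells with low NGFR and EGFR, and from the unseparated bulk, with 3 libraries for each of the 6 groups. DMSO high and EPZ5676 high are the groups compared here, and the corresponding low groups serve as a second comparison. The labels do not say whether libraries of a group came from separate cultures, so p-values measure the spread between these libraries, which may be technical. The line stands for 1 melanoma.

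DOT1L is the enzyme that methylates lysine 79 of histone H3, a mark found along the bodies of actively transcribed genes. It works with partners such as MLLT10, MLLT1 and MLLT3 and is best known for keeping HOXA and MEIS1 genes active in leukaemias with rearranged KMT2A. EPZ5676 (pinometostat) occupies the methyl donor pocket of DOT1L and blocks its catalysis, so the amount of DOT1L RNA need not change. In BRAF-mutant melanoma cultures a small share of cells carries high NGFR, EGFR, AXL and matrix genes with low pigment genes, and such cells can survive BRAF inhibition. The comparison is between EPZ5676 and DMSO among cells that were NGFR/EGFR-high when RNA was taken. Cells already in this state before treatment and cells that entered it during the 7 days cannot be told apart.

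The 6 libraries held 15022352 to 21559150 gene counts, within the 13383741 to 26311674 of the whole series. Levels below are in CPM, the usual scaling of a gene's count to its library's total, with TMM factors over the 18 libraries. NGFR averaged 572 CPM in DMSO high and 1 CPM in DMSO low libraries, and EGFR 75.9 and 2.79 CPM, so both defining markers matched the labels. Melanoma lineage genes were present (SOX10 at 293 CPM and PMEL at 541 CPM in DMSO high). A bulk DMSO library (replicate 1) carried 220 CPM of NGFR against 12.6 and 9.24 CPM in the other bulk DMSO libraries, and is left out of the comparisons below. Reads that fell on no annotated feature made up 14.55%, 12.94% and 21.39% of the DMSO high libraries and 18.88%, 21.17% and 12.8% of the EPZ5676 high libraries. The 3 libraries above 16% (DMSO replicate 3, EPZ5676 replicates 1 and 2) stood apart in this respect, and results without them rest on 2 DMSO and 1 EPZ5676 high libraries, fitted together with the low libraries at or under 16%. RNA came from many cells per library, so fewer cells with a transcript and less transcript per cell cannot be told apart.

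EPZ5676 moved many genes in high cells, most by less than 2-fold. In edgeR's quasi-likelihood test with Benjamini-Hochberg adjustment (threshold 0.05), 668 of 16621 genes rose (4.02%) and 745 fell (4.48%), and the median log2 change over all genes was -0.01. A change of at least 2-fold was seen for 68 rising genes (0.409%) and 38 falling genes (0.229%), or 43 and 22 without EPZ5676 replicate 2. When only genes averaging at least 5 CPM in the high libraries were tested, 13 rose and 10 fell by 2-fold or more. With library size in place of TMM factors the split was 838 higher and 592 lower, that is, 58.6% of calls were higher instead of 47.3%. The counts depended on single libraries. They were 295 higher and 294 lower without EPZ5676 replicate 2, 398 and 456 without EPZ5676 replicate 1, 412 and 426 without EPZ5676 replicate 3, 501 and 489 without DMSO replicate 1, and 235 and 139 without the 3 libraries above 16% on no feature. Of the 145 called genes that the naming rule picked, 94 kept their call with each library left out in turn. Without the 3 libraries above 16%, 63 of the 145 kept it, and with all 18 libraries sharing the spread 56 did. 27 kept it under every alternative run. The called genes named below belong to the 94 unless a lost call is given or they are said to lie outside the rule. Counts of list members are to be read beside the shares of all genes, 4.02% higher and 4.48% lower. In all, 4317 of the 16621 genes tested had groups that did not overlap. The rule took the largest called changes among such genes, and from each gene list the called members with the smallest p. FOSL1, MAFF, ID1, S100B, CDKN2A, FGF1, MLPH, TYR, QPCT, CAPN3 and TRPM1, named as called members of lists, lie outside it. So do MEIS1, HOXA9, GPR143 and TYRP1. All of these were chosen after their values were seen, and none belongs to the 145.

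**Figure D1:**
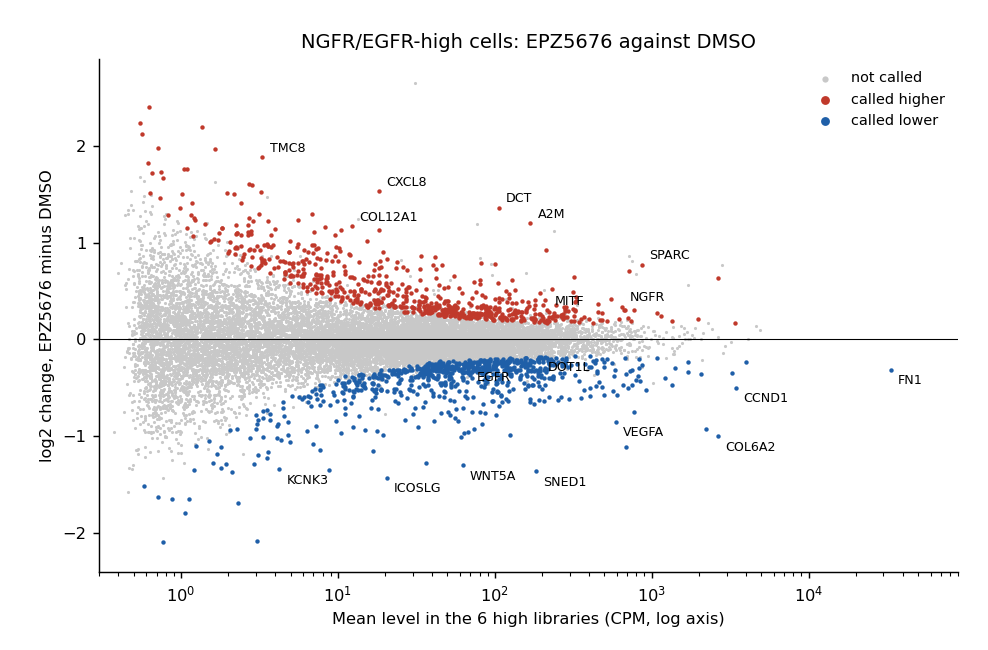
Log2 change (EPZ5676 minus DMSO) against mean CPM of the 6 high libraries on a log axis, 1 point per tested gene, red for the 668 called higher and blue for the 745 called lower. TMC8, CXCL8 and DCT lie at the top and ICOSLG, SNED1 and WNT5A at the bottom, while NGFR, EGFR, DOT1L and MITF lie near the line of no change.

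The markers that define the cells differed little between treatments. Cells of both groups were chosen for high NGFR and EGFR, so these levels are partly set by that choice. The values below are therefore not a free measure of the drug's effect on either marker. NGFR, the low-affinity nerve growth factor receptor, was at 563, 537 and 617 CPM in the DMSO libraries and at 767, 768 and 645 CPM in the EPZ5676 libraries. The groups did not overlap, although EPZ5676 replicate 3 came close to the DMSO range, and NGFR rose by 0.34 ± 0.07 on the log2 scale (SE, n = 3 per group, edgeR adjusted p = 0.00782). The call was lost without DMSO replicate 2 (adjusted p = 0.086), EPZ5676 replicate 1 (0.0531) or EPZ5676 replicate 2 (0.0509), and in all in 7 of 19 alternative settings, among them the fits with 12, 17 or 18 libraries and that without the libraries above 16%. EGFR, the epidermal growth factor receptor, gave 85.6, 73.4 and 68.7 CPM with DMSO and 62.4, 56 and 69.2 CPM with EPZ5676. Here the groups overlapped, and the log2 change of -0.28 ± 0.09 missed the threshold (edgeR adjusted p = 0.053), though it passed in 7 of 19 settings: without DMSO replicate 3 (0.026) or EPZ5676 replicate 3 (0.0364), with DESeq2, without the filter, with 17 libraries, and with a replicate block or the no-feature share as a covariate.

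DOT1L itself was at 211, 196 and 217 CPM with DMSO and at 185, 186 and 180 CPM with EPZ5676. It fell by 0.18 ± 0.06 on the log2 scale (edgeR adjusted p = 0.0481), and that call was lost in 15 of 19 alternative settings, among them the removal of each library except DMSO replicate 2 (adjusted p from 0.14 to 0.226). None of the other 9 tested partners passed. MLLT10 and MLLT1, which bind DOT1L directly, had log2 changes of -0.05 ± 0.09 and 0.08 ± 0.07, and the complex as a list had a median of -0.07. Among 12 tested genes of the HOXA and MEIS list, 0 rose and 2 fell, with a median of 0.03, 1 fell without any library but DMSO replicate 2, and 0 fell without the libraries above 16%. MEIS3, a HOX cofactor of the TALE family, gave 49.8, 54.8 and 54.4 CPM with DMSO and 39.1, 36.9 and 41.1 CPM with EPZ5676, a separation without overlap (log2 -0.45 ± 0.07, edgeR adjusted p = 0.000547). Its relative MEIS2 had a log2 change of -0.3 ± 0.08 (adjusted p = 0.0339), a call that survived only the removal of DMSO replicate 2 (0.0114) and stood between 0.0829 and 0.157 without any other library. MEIS1 averaged 10 and 10.4 CPM with a log2 change of 0.06 ± 0.12, and HOXA9 had 0 CPM in both groups.

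The largest rises included genes of pigment cells, matrix and inflammation. DCT, the melanin enzyme dopachrome tautomerase, was at 62.7, 56.8 and 58.1 CPM with DMSO and at 146, 148 and 165 CPM with EPZ5676. Every treated library lay far above every control, and DCT was 2.57-fold higher (log2 1.36 ± 0.06, edgeR adjusted p = 3.26e-10). TMC8, a membrane protein of the transmembrane channel-like family, stood at 1.28, 1.25 and 1.73 CPM with DMSO and at 5.14, 4.8 and 5.65 CPM with EPZ5676, which made it the largest rise by the naming rule (3.68-fold, log2 1.88 ± 0.22, adjusted p = 2.46e-05). CXCL8, the neutrophil chemokine interleukin 8, was 2.89-fold higher, with 11.6, 9.21 and 7.14 CPM against 28.5, 31.4 and 21.7 CPM (log2 1.53 ± 0.18, adjusted p = 0.00071). The protease inhibitor A2M gave 107, 99.5 and 100 CPM against 228, 242 and 236 CPM (2.3-fold, log2 1.2 ± 0.06, adjusted p = 3.26e-10). The treated and control libraries were far apart for all 4 genes, and the rule admitted only genes without overlap.

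Further rises of 2-fold or more were seen for COL12A1, a collagen that decorates fibrils (2.25-fold), and for PTPRZ1, a receptor phosphatase of glial cells (2.23-fold). CYP26B1, which degrades retinoic acid, was 2.19-fold higher, and FRZB, a secreted WNT-binding protein, 2.18-fold. TGFBI, a matrix protein induced by TGF-beta, rose from a low level, with 1.88, 2.84 and 2.7 CPM against 5.14, 5.47 and 5.89 CPM. SLITRK6 (2.34-fold), PI15 (2.33-fold) and the long noncoding RNA LINC01531 (2.47-fold) completed the 12. Adjusted p-values of these 8 genes in edgeR's test ran from 5.31e-06 (COL12A1) to 0.00177 (FRZB).

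**Figure D2:**
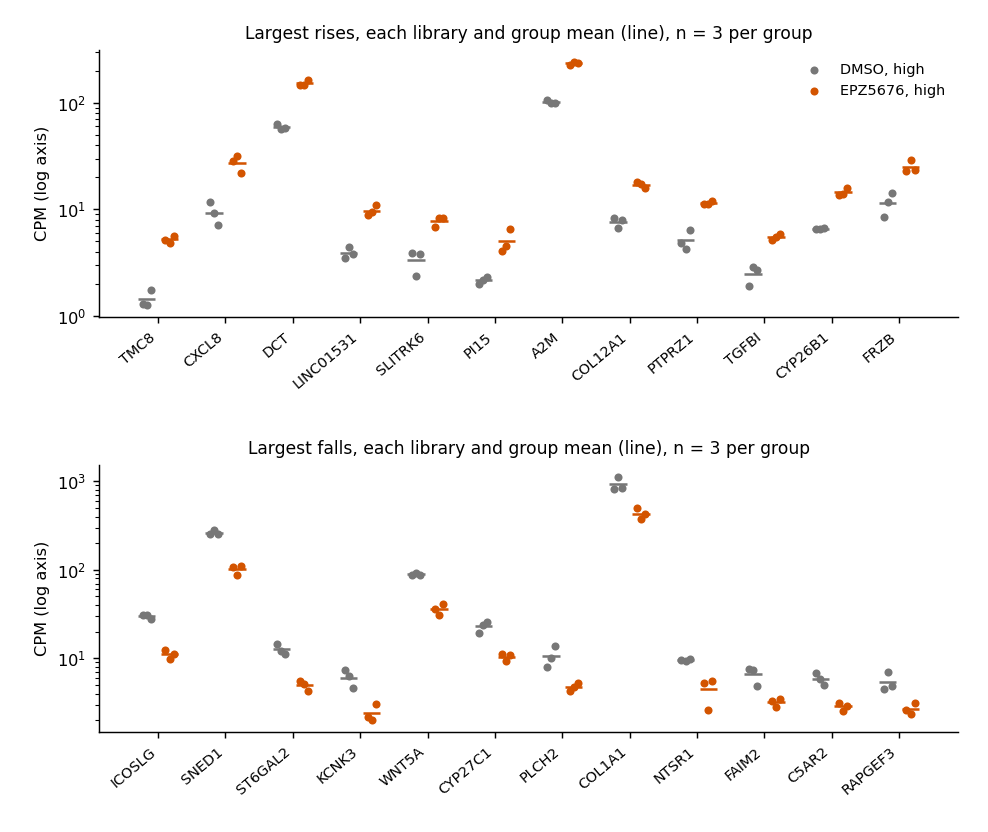
CPM of each high library (points, log axis) and the group mean (line) for the 12 largest rises and the 12 largest falls, 3 libraries per group. The naming rule admitted only genes whose grey DMSO points and orange EPZ5676 points do not overlap. Levels run from TMC8 at 1.25 to 5.65 CPM up to COL1A1 at 378 to 1126 CPM.

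The largest falls were of mixed function. SNED1, an extracellular matrix glycoprotein, gave 251, 285 and 252 CPM with DMSO and 108, 88 and 111 CPM with EPZ5676 (2.57-fold lower, log2 -1.36 ± 0.08, edgeR adjusted p = 6.18e-07). WNT5A, a ligand of non-canonical WNT signalling linked to melanoma invasion, went from 88.1, 91.2 and 87.1 CPM to 36, 31.1 and 41.2 CPM, or 2.47-fold lower (log2 -1.3 ± 0.08, adjusted p = 3.25e-08). ICOSLG, the ligand of the T cell costimulator ICOS, showed the largest fall by the rule, with 31, 31 and 27.5 CPM against 12.5, 9.83 and 11.2 CPM (2.69-fold lower, log2 -1.43 ± 0.11, adjusted p = 1.19e-07). In all 3 genes every treated library lay far below every control, and a lack of overlap was a condition of the rule.

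The sialyltransferase ST6GAL2 was 2.55-fold lower, the potassium channel KCNK3 2.53-fold, the cytochrome CYP27C1 2.22-fold and the phospholipase PLCH2 2.21-fold. NTSR1, the neurotensin receptor, was 2.12-fold lower, FAIM2, an inhibitor of FAS-driven death, 2.09-fold, the complement receptor C5AR2 2.06-fold and the cyclic AMP sensor RAPGEF3 2.03-fold. Their adjusted p-values ran from 7.57e-06 (CYP27C1) to 0.00504 (RAPGEF3) in edgeR's test. COL1A1, the main chain of type I collagen, was at 822, 1126 and 842 CPM with DMSO and 495, 378 and 427 CPM with EPZ5676. Its fall of 1.11 ± 0.18 on the log2 scale was called (adjusted p = 0.0308) but not without EPZ5676 replicate 2 (0.0794) or EPZ5676 replicate 3 (0.127).

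Genes of melanin synthesis and melanosomes tended to lie higher under EPZ5676. Of 26 tested members, 8 rose and 1 (MLPH, which links melanosomes to their motor) fell, with a median log2 change of 0.15. The count of rising members was 5 without EPZ5676 replicate 3 and 7 without the libraries above 16%, and 3 fell without DMSO replicate 2. PMEL, the protein of melanosome fibrils, was at 508, 530 and 584 CPM with DMSO and at 841, 959 and 870 CPM with EPZ5676 (1.64-fold higher, log2 0.71 ± 0.06, edgeR adjusted p = 1.82e-06). GPNMB, a melanosomal glycoprotein, gave 575, 585 and 621 CPM against 691, 735 and 781 CPM (1.24-fold, adjusted p = 0.00209). BACE2, a protease that cleaves PMEL, gave 259, 260 and 274 CPM against 317, 311 and 341 CPM (1.22-fold, adjusted p = 0.00248). None of these genes had overlapping groups. TYR, the rate-limiting enzyme of melanin synthesis, was at 63.8, 51.1 and 68.9 CPM with DMSO and at 78.4, 78.3 and 90.8 CPM with EPZ5676 (1.35-fold, adjusted p = 0.0169). MLANA, another melanosome antigen, had a log2 change of 0.14 ± 0.09 that did not pass.

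MITF, the master factor of the melanocyte lineage, is known to bind the motif TCATGTG or TCACGTG near the start of pigment genes. The 250 bases before the start are shown for TYR, for a downstream start of DCT and for GPNMB, the 3 called genes whose windows hold it. Sequences are from RefSeq on GRCh38.p14, written 5′ to 3′ along the gene's strand, with matches of the motif on either strand in capitals (CACATGA is TCATGTG on the opposite strand). TYR lies at chr11:89177625-89177874 on the plus strand, DCT at chr13:94479683-94479932 on the minus strand and GPNMB at chr7:23246525-23246774 on the plus strand.
TYR: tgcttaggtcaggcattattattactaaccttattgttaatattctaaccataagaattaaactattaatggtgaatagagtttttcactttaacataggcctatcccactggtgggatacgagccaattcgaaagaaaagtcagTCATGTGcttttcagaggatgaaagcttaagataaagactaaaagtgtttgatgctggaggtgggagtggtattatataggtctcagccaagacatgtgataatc
DCT: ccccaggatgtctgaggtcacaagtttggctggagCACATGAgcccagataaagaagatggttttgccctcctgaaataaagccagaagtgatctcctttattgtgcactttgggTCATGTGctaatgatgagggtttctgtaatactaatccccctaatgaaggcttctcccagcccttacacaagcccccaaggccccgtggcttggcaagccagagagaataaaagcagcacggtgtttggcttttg
GPNMB: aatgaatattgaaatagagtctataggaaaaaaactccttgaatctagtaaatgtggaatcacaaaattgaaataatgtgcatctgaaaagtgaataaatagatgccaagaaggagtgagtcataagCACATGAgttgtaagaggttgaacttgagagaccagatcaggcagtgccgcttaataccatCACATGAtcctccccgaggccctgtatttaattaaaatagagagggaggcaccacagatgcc
TYR held 1 match, 105 bases before the start by the motif's first base, and DCT and GPNMB held 2 each. The upstream start of DCT held 0, as did all starts of the called genes QPCT, CAPN3 and TRPM1, while TYRP1, SLC24A5, TSPAN10, GPR143 and ATP7A, which were not called, held 1 or 2. RefSeq promoters were matched for 22 of the 27 genes of the pigmentation list, but not for PMEL and BACE2, which were called higher. The 22 genes had 41 starts in all. Of these, 8 (19.5%) held either motif, against 2018 (5.75%) of 35116 starts of all genes. Starts of a gene can overlap, and a match is a description of the letters.

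Some lineage transcription factors rose, and SOX9 was the only 1 called lower. Over all genes tested 4.02% rose and 4.48% fell. Of 15 tested melanocyte factors 4 rose and 1 fell (median log2 0.05), and 2 rose when DMSO replicate 1 or any of the 3 EPZ5676 libraries was left out. MITF was at 197, 181 and 202 CPM with DMSO and at 222, 234 and 261 CPM with EPZ5676, without overlap (1.23-fold higher, log2 0.3 ± 0.06, edgeR adjusted p = 0.005). IRF4, which acts with MITF on TYR, gave 4.8, 4.97 and 6.93 CPM against 9.76, 9.22 and 10.4 CPM (1.77-fold, adjusted p = 0.00199). SOX9, a neural crest factor that opposes the SOX10 programme, gave 7.59, 5.83 and 5.89 CPM against 2.46, 3.02 and 4.21 CPM (1.98-fold lower, adjusted p = 0.0044). SOX10, which drives MITF, was at 292, 242 and 346 CPM against 361, 354 and 415 CPM; the libraries did not overlap, yet the log2 change of 0.36 ± 0.14 did not pass (adjusted p = 0.207). EDNRB, the endothelin receptor of melanocytes, rose 1.69-fold, with 21, 17.8 and 19.5 CPM against 30.6, 35 and 32.8 CPM (adjusted p = 3.67e-05), as 1 of 2 rising genes among 8 tested growth signals of melanocytes (1 without DMSO replicate 2 or EPZ5676 replicate 3).

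For pigment genes and lineage factors with at least 2-fold more RNA in DMSO low cells, treated high cells stayed far from the low level. Other genes were not scored in this way. DCT reached 153 CPM, while DMSO low cells had 1053 CPM, so the rise covered 9.41% of the gap between DMSO high and DMSO low. For TYR it covered 14.4%, for PMEL 4.59%, for MITF 11.4% and for IRF4 9.07%. Over the 18 pigmentation genes with at least 2-fold more RNA in DMSO low cells the median was 4.91%, from -4.21% (GPR143) to 33.6% (TYRP1, which was near 1 CPM). For the 7 of them that were called higher it ran from 4.59% to 16.5%. MLANA, with 62.2 CPM in DMSO high and 567 CPM in DMSO low cells, covered 1.25%. The part of a changed share of low cells in these results was not tested.

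**Figure D3:**
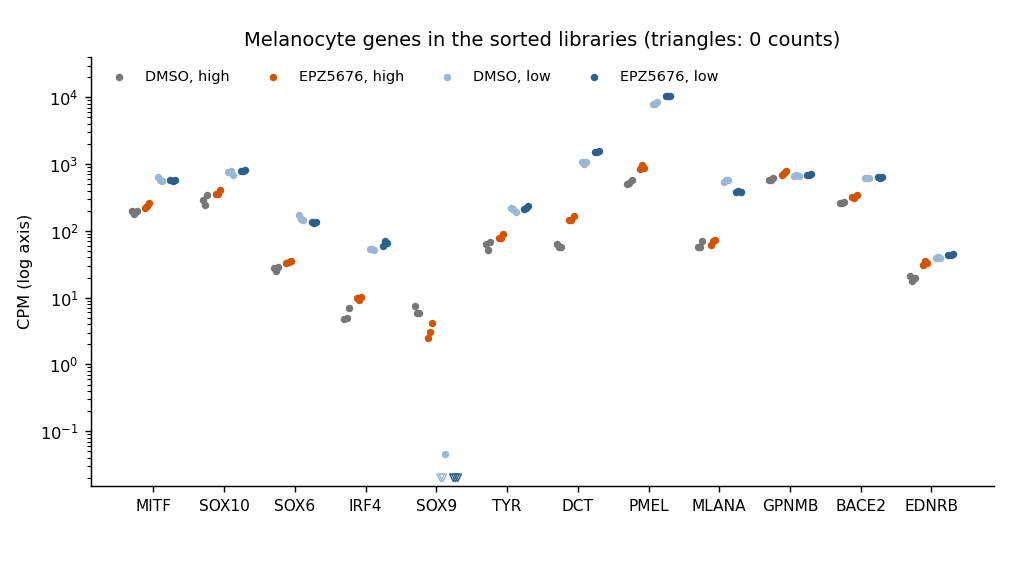
CPM (log axis) of 12 melanocyte genes in each library of the 4 NGFR/EGFR-high and low groups, 3 points per group, with open triangles for 0 counts. The orange EPZ5676 high points lie above the grey DMSO high points for DCT, PMEL and IRF4 and below them for SOX9, and they stay below the blue low points for PMEL (890 against 8147 CPM) and MLANA.

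Schwann cell and neural crest genes rose more often than they fell. Of 21 tested members 9 rose and 3 fell, the median was 0.28, and the same counts without the libraries above 16% were 9 and 2. The rising count was 6 without EPZ5676 replicate 3, and 7 without DMSO replicate 1 or 2 or EPZ5676 replicate 2. ITGA4, an integrin of migrating crest cells, was at 91.7, 95.2 and 97.5 CPM with DMSO and at 129, 126 and 126 CPM with EPZ5676, without overlap (log2 0.42 ± 0.06, edgeR adjusted p = 0.000122). S100B, a glial calcium sensor, had a log2 change of 0.38 ± 0.06. MBP, myelin basic protein, went the other way, from 498, 486 and 472 CPM to 327, 309 and 339 CPM (1.5-fold lower, adjusted p = 2.33e-06). The water channel AQP1 was also lower, with 33.5, 38.6 and 30.4 CPM against 19.5, 17.4 and 21 CPM (1.78-fold, adjusted p = 3.84e-05).

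Markers of drug-tolerant cells fell more often than they rose. Of 18 tested, 6 fell and 2 (NGFR and FOSL1) rose, with a median of -0.15. NGFR is also a marker by which the cells were chosen. The falling count was 3 without EPZ5676 replicate 2 and 3 without the libraries above 16%, and the rising count was 1 without DMSO replicate 1 or 2, and 0 without EPZ5676 replicate 1 or 2 or without the libraries above 16%. PDGFRB, a growth factor receptor that returns in resistant melanoma, gave 105, 99.2 and 99.6 CPM with DMSO and 63, 51.9 and 66.3 CPM with EPZ5676 (1.68-fold lower, edgeR adjusted p = 7.63e-06). FGFR1 gave 242, 221 and 237 CPM against 166, 160 and 169 CPM (1.42-fold lower, adjusted p = 1.1e-05). AXL, the receptor that often names this state, had a log2 change of -0.16 ± 0.13 and did not pass. The wider list of the undifferentiated melanoma state had 6 falling and 2 rising genes of 19 (median -0.16), with 3 falling without DMSO replicate 1 or EPZ5676 replicate 2, 2 without the libraries above 16%, and 0 rising without DMSO replicate 1 or EPZ5676 replicate 1 or 2. TGFBR2, in that list, fell by 0.45 ± 0.06 (adjusted p = 8.64e-05). FOSL1 rose by 0.37 ± 0.1 (adjusted p = 0.0412).

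Output and feedback genes of the MAPK pathway, which BRAF drives, fell more often than they rose. Of 21 tested, 10 fell and 2 (FOSL1 and MAFF) rose, the median was -0.19, and 4 fell without the libraries above 16%. The rising count was 0 without EPZ5676 replicate 1 or 2 and 1 without DMSO replicate 1. The 10 included feedback inhibitors as well as growth genes. CCND1, which encodes cyclin D1, was at 4027, 4144 and 3930 CPM with DMSO and at 3024, 2790 and 2757 CPM with EPZ5676 (1.42-fold lower, edgeR adjusted p = 3.68e-06). DUSP4, a phosphatase that switches off ERK, gave 1078, 1113 and 1052 CPM against 759, 704 and 807 CPM (1.43-fold lower, adjusted p = 1.06e-05). SPRY1, a Sprouty inhibitor, gave 146, 145 and 147 CPM against 94.2, 96.9 and 113 CPM (1.45-fold lower, adjusted p = 4.12e-05). LIF, a cytokine, gave 121, 124 and 112 CPM against 78.8, 73.8 and 77.3 CPM (1.56-fold lower, adjusted p = 3.27e-06). The DMSO libraries of these 4 genes lay within a narrow band above all treated ones. Of 23 AP-1 and immediate early genes 6 fell and 1 rose (median -0.16), but the falling count was 0 without EPZ5676 replicate 2, 1 without EPZ5676 replicate 3, and 2 without DMSO replicate 1 or without the libraries above 16%.

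Collagens fell far more often than they rose. Of 23 tested chains 10 fell and 1 (COL12A1) rose, and the median log2 change was -0.28. Without the libraries above 16%, 4 fell, and the rising count was 4 without DMSO replicate 2 and 2 without EPZ5676 replicate 1. COL6A2 and COL6A1 encode chains of the beaded filaments around cells. COL6A2 was at 3657, 3546 and 3360 CPM with DMSO and at 1801, 1602 and 1878 CPM with EPZ5676 (2.01-fold lower, log2 -1 ± 0.06, edgeR adjusted p = 4.49e-09). COL6A1 gave 2891, 2984 and 2807 CPM against 1586, 1385 and 1629 CPM (1.89-fold lower, adjusted p = 1.51e-08). COL5A1, a regulator of fibril width, gave 74, 86.8 and 73 CPM against 50, 42.3 and 51.7 CPM (1.63-fold lower, adjusted p = 5.59e-05). COL12A1, whose rise is given above, had 7.57 CPM on average with DMSO.

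Integrins, the receptors for this matrix, split by subunit. Of 17 tested, 8 fell and 3 rose (median -0.12). The falling count was 3 without EPZ5676 replicate 2, 4 without EPZ5676 replicate 3, 5 without DMSO replicate 1 or EPZ5676 replicate 1, and 1 without the libraries above 16%. The laminin receptor subunit ITGA7 fell from 77.1, 95.9 and 79.3 CPM to 43.7, 40.8 and 45 CPM (1.96-fold lower, edgeR adjusted p = 1.21e-06). ITGA6, which also binds laminin, rose from 247, 246 and 265 CPM to 308, 302 and 319 CPM (1.22-fold, adjusted p = 0.0019), and ITGA4 rose 1.34-fold. Among 15 laminin and basement membrane genes, 1 rose (LAMA1, 1.22-fold) and 2 fell (LAMB3, 1.39-fold lower, and NID2, whose adjusted p of 0.0365 was lost without any 1 library but DMSO replicate 3).

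Matricellular proteins and proteases gave 4 rising and 9 falling genes of 27 (median -0.03), with 4 falling without EPZ5676 replicate 2 and 1 without the libraries above 16%. SPARC, a collagen-binding protein made by many pigment cells, was at 632, 607 and 675 CPM with DMSO and at 1094, 1102 and 1085 CPM with EPZ5676 (1.71-fold higher, edgeR adjusted p = 4.38e-08). FN1, fibronectin, gave 39122, 35084 and 36286 CPM against 30656, 28074 and 30546 CPM (1.24-fold lower, adjusted p = 0.000135), a call lost with 12, 17 or 18 libraries and without the libraries above 16%. MMP2, a gelatinase, gave 836, 811 and 819 CPM against 608, 520 and 618 CPM (1.42-fold lower, adjusted p = 3.61e-05). PLAT, tissue plasminogen activator, gave 106, 94.3 and 109 CPM against 139, 143 and 147 CPM (1.39-fold higher, adjusted p = 9.12e-05). SPARC and FN1 thus moved in opposite directions in the same libraries.

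Genes tied to TGF-beta fell in larger number than they rose. Of 23 tested, 9 fell and 3 rose (median -0.14), and 1 fell without the libraries above 16%. Falling members covered the ligand, receptors, latent binding proteins and the feedback inhibitor. TGFB1 was at 221, 196 and 214 CPM with DMSO and at 167, 158 and 171 CPM with EPZ5676 (1.28-fold lower, edgeR adjusted p = 0.000814). SMAD7, the inhibitory SMAD, gave 57.3, 64.7 and 62.6 CPM against 45.5, 44 and 42 CPM (1.41-fold lower, adjusted p = 0.000203). ID3, a target of BMP signalling, rose from 27.3, 22.8 and 22 CPM to 45.4, 46.7 and 39.2 CPM (1.81-fold, adjusted p = 1.45e-05), as did ID1 and TGFBI. Of 21 YAP/TEAD targets 2 rose and 3 fell (median 0.14), with 4 rising without EPZ5676 replicate 3 and 1 falling without DMSO replicate 1 or any 1 EPZ5676 library. CCN2 rose 1.3-fold and IGFBP3 1.57-fold, while PTPN14, an inhibitor of YAP, fell from 503, 383 and 395 CPM to 300, 279 and 270 CPM (1.51-fold lower, adjusted p = 0.00377).

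In the WNT pathway 5 of 17 tested genes fell and 0 rose (median 0.01), with 3 falling without EPZ5676 replicate 1 or 2 and 2 without the libraries above 16%. Beside WNT5A, the secreted inhibitor SFRP1 fell from 142, 132 and 119 CPM to 89.7, 80.6 and 93.4 CPM (1.5-fold, edgeR adjusted p = 3.78e-05). AXIN2, a readout of beta-catenin, was 1.53-fold lower (adjusted p = 0.00813). The retinoic acid list pointed the other way, with 5 of 11 rising and 0 falling (median 0.49), though 3 rose without EPZ5676 replicate 3 and 2 without the libraries above 16%. It held synthesis enzymes as well as CYP26B1, which removes the product. RDH10, which makes retinal, was at 32.2, 36.8 and 38.2 CPM with DMSO and at 57.2, 54.9 and 46.6 CPM with EPZ5676 (1.47-fold, adjusted p = 0.000568). ALDH1A3, which oxidises retinal to retinoic acid, gave 2.31, 2.7 and 2.63 CPM against 4.5, 4.97 and 5.41 CPM (1.94-fold, adjusted p = 0.00426).

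Receptor kinases and their ligands showed 4 rising and 5 falling genes of 35 (median -0.13). The 5 that fell were FGFR1, FGF1, PDGFRA, PDGFRB and VEGFA, and 5 fell without the libraries above 16% as well. The rising count was 1 without EPZ5676 replicate 2 or 3. VEGFA, the main angiogenic ligand, was at 760, 757 and 753 CPM with DMSO and at 431, 389 and 446 CPM with EPZ5676, a fall of 1.8-fold (log2 -0.85 ± 0.06, edgeR adjusted p = 3.25e-08). PDGFRA gave 58.7, 54.8 and 57.8 CPM against 35.9, 30.6 and 35.1 CPM (1.69-fold lower, adjusted p = 3.48e-06). Of 26 semaphorin, plexin and ephrin genes 3 rose and 5 fell (median 0.04), with 5 rising without DMSO replicate 1 and 3 falling without the libraries above 16%. NRP1, a coreceptor for semaphorins and VEGF, fell from 72.9, 65.4 and 58.5 CPM to 38.6, 34.5 and 42.1 CPM (1.71-fold lower, adjusted p = 1.85e-05), and EFNB1, an ephrin ligand, was 1.68-fold lower. RGS1 and RGS17, brakes on G protein signalling, were 1.56-fold and 1.57-fold lower the 2 that fell among 13 RGS genes, of which 1 rose, or 0 without any 1 library but DMSO replicate 3.

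Cell cycle genes of the S phase did not move as a group, while inhibitors of G1 fell. Among 40 DNA replication genes 1 (DTL) rose and 0 fell (median 0.07). The rising count was 0 without EPZ5676 replicate 2, 4 without DMSO replicate 2 and 5 with library size for scaling. Of 50 mitosis genes 6 fell and 1 rose (median -0.09), with 0 falling without EPZ5676 replicate 2 or without the libraries above 16%, 3 without EPZ5676 replicate 1 and 10 without DMSO replicate 2. Of 19 cyclins, kinases and inhibitors of G1, 5 fell and 3 rose (median 0.06), 1 rose without EPZ5676 replicate 2 or 3, and 3 fell without the libraries above 16%. CDKN1A, which encodes p21, was at 134, 125 and 129 CPM with DMSO and at 79.4, 69.5 and 77.8 CPM with EPZ5676 (1.72-fold lower, edgeR adjusted p = 4e-07). CDKN2C gave 123, 141 and 131 CPM against 85.8, 73.3 and 87.3 CPM (1.61-fold lower, adjusted p = 1.2e-05), and CDKN1B was 1.35-fold lower. The other falling members were CCND1 and CDKN2A. Of 23 p53 targets 2 rose and 2 fell (median -0.03), with 1 rising and 1 falling without EPZ5676 replicate 1 or 2 and 1 falling without DMSO replicate 1.

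Hypoxia and glycolysis genes gave 7 falls and 0 rises of 29 (median -0.09), with 4 falling without EPZ5676 replicate 2 and 2 without the libraries above 16%. NDRG1, a stress gene induced by hypoxia, was at 614, 612 and 546 CPM with DMSO and at 391, 362 and 447 CPM with EPZ5676 (1.48-fold lower, edgeR adjusted p = 8.14e-05). PDK1, which closes the entry of pyruvate into mitochondria, was 1.29-fold lower. Amino acid and ER stress genes split, 4 rising and 3 falling of 24 (median -0.03), with 1 falling without DMSO replicate 1 or any 1 EPZ5676 library. SLC7A5, a transporter of large neutral amino acids, rose from 100, 96.4 and 108 CPM to 152, 160 and 155 CPM (1.53-fold, adjusted p = 3.84e-06), while the factor CEBPB fell 1.28-fold. Of 11 LXR targets 3 fell, among them ABCA1, the cholesterol exporter, from 16.5, 11.7 and 14 CPM to 9.18, 7.88 and 7.71 CPM (1.7-fold lower, adjusted p = 0.00131). Without the libraries above 16%, 0 LXR targets fell, ABCA1 included, and 1 rose.

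Ribosomal protein genes rose by small amounts, 12 of 50 with 0 falling and a median of 0.12. The count was 26 without DMSO replicate 2, 6 without DMSO replicate 3 or EPZ5676 replicate 3, 3 without EPZ5676 replicate 2 and 2 without the libraries above 16%. RPL11 was at 611, 598 and 609 CPM with DMSO and at 720, 784 and 743 CPM with EPZ5676 (1.23-fold, edgeR adjusted p = 0.00122). Many ribosomal genes have processed pseudogenes, so their read assignment is uncertain. Nuclear genes of oxidative phosphorylation gave 4 rises of 32 (median 0.06), a count of 0 to 10 with single libraries left out, 0 of them without EPZ5676 replicate 2 or 3 or the libraries above 16%, 2 without DMSO replicate 1 or 3 and 10 without DMSO replicate 2.

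Inflammatory and interferon genes changed one by one. Of 20 NF-kB and cytokine genes 1 (CXCL8) rose and 3 fell (median -0.1), and 3 rose without EPZ5676 replicate 3. IL11, a cytokine of the interleukin 6 family, fell from 104, 112 and 95.2 CPM to 70.8, 59.3 and 66.3 CPM (1.59-fold lower, edgeR adjusted p = 1.7e-05). Of 36 interferon response genes 5 rose and 2 fell (median 0.05), with 1 rising without EPZ5676 replicate 2, 3 without EPZ5676 replicate 3 and 0 without the libraries above 16%, while the falling count was 0 or 1 without any library but DMSO replicate 2. CMPK2, a mitochondrial kinase induced by interferon, was 1.59-fold higher. Antigen presentation had 3 falls of 19 (median -0.08), with 0 without EPZ5676 replicate 3, 1 without DMSO replicate 2 or EPZ5676 replicate 1 or 2, and sterol synthesis 2 of 24 (median -0.11), with 0 without EPZ5676 replicate 2 and 1 without EPZ5676 replicate 1.

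Of 41 other enzymes that write, read or erase histone and DNA methylation, 5 fell and 0 rose (median -0.06). The count was 1 without EPZ5676 replicate 2 or without the libraries above 16%, 2 without DMSO replicate 1 or EPZ5676 replicate 1, and 10 without DMSO replicate 2. UHRF2, a relative of the DNA methylation factor UHRF1, was the clearest, with 204, 203 and 205 CPM against 132, 125 and 133 CPM (1.57-fold lower, edgeR adjusted p = 5.78e-07). Replication-dependent histone genes, whose RNA lacks a poly(A) tail, tracked the no-feature share. Their summed level was 65.8, 50.9 and 156 CPM in the DMSO libraries and 109, 139 and 62.9 CPM in the EPZ5676 libraries, high in the 3 libraries above 16%. Of 13 tested histone genes 0 passed in edgeR's test in either direction. The part of poly(A) selection in other results was not tested.

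**Figure D4:**
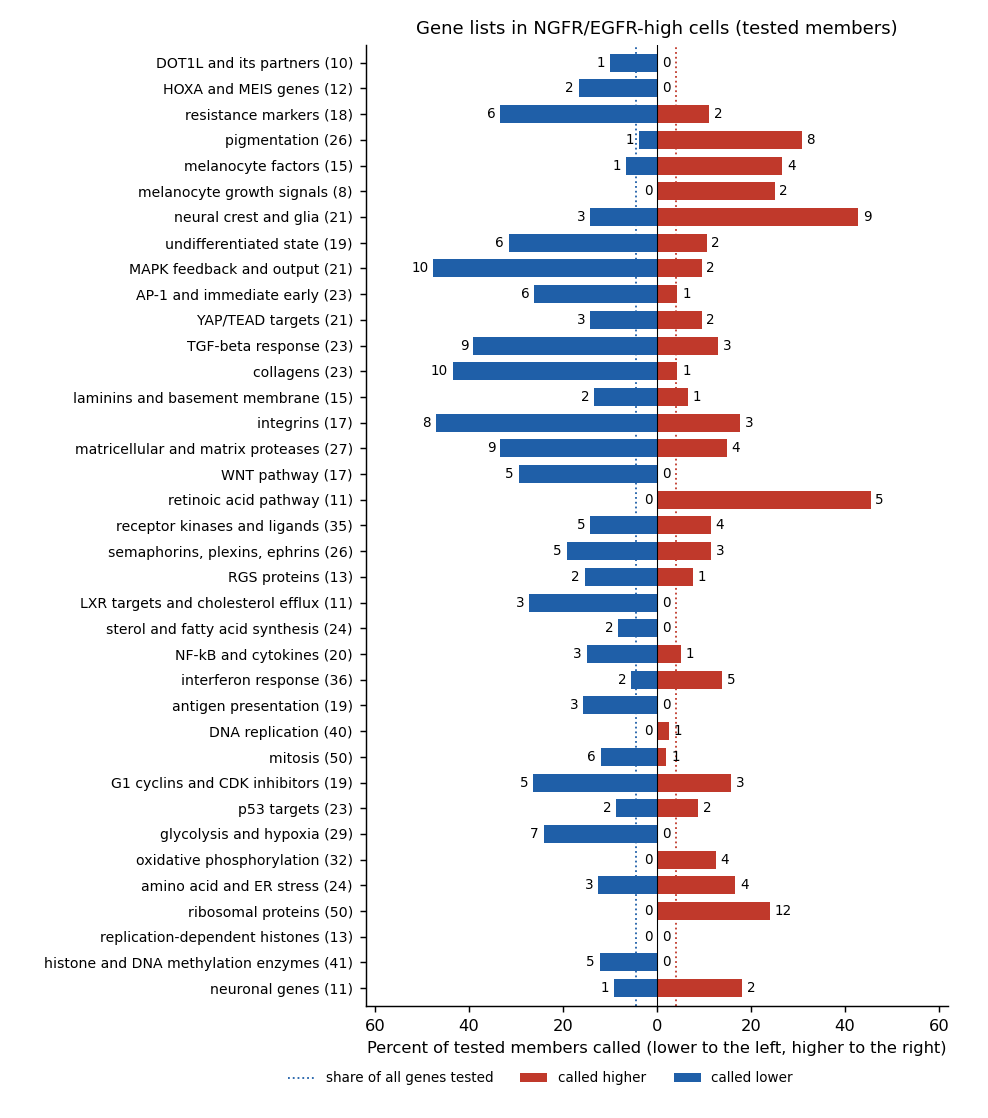
Percent of the tested members of each gene list called lower (left, blue) or higher (right, red) in high cells, with the number called at the bar end, the number tested in brackets and dotted lines at the share of all genes tested (4.48% lower, 4.02% higher). Collagens, integrins and MAPK output lie far to the left, and the retinoic acid list, neural crest and glia, and pigmentation lie to the right.

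Markers of other cell types ranged from 0 to the level of COL1A1. Leukocyte markers summed to 0.693 to 1.16 CPM in the DMSO and 1.62 to 1.87 CPM in the EPZ5676 libraries. Endothelial markers summed to 23.2 to 26.8 CPM with DMSO and 24.9 to 27.8 CPM with EPZ5676. Among them PECAM1 was at 0 in all 6, while EGFL7 was at 11.2 to 16.2, VWF at 7.76 to 9.14 and KDR at 2.01 to 3.81 CPM. Of the keratinocyte markers KRT1 was at 0 in all 6 and KRT10 alone exceeded 1 CPM. Fibroblast markers summed to 1076 to 1411 CPM with DMSO and 603 to 743 CPM with EPZ5676, mostly COL1A1, while THY1 stayed at or under 0.234 CPM. Of 7 tested, LUM and DCN rose (log2 0.73 ± 0.14 and 0.5 ± 0.11) and COL1A1 and PDGFRA fell, with 1 falling without EPZ5676 replicate 2 or 3. The LUM call was lost without DMSO replicate 2 (adjusted p = 0.134). Of 11 neuronal genes 2 rose and 1 fell, with 1 rising without EPZ5676 replicate 2 and 0 without EPZ5676 replicate 3.

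The response of high cells differed from that of low cells for many genes. In low cells 480 genes rose (2.69%) and 277 fell (1.55%) among 17821 tested, in a fit of the 12 high and low libraries. The high lists overlapped with them below are from the 6 high libraries alone. In the fit of 12 libraries, 950 genes rose and 809 fell in high cells. A direct test of the difference (the interaction term, high minus low) called 432 genes with a higher effect in high cells (2.42%) and 431 with a lower effect (2.42%). Without the 4 high and low libraries above 16% the counts were 101 and 117, and with single libraries left out they ran from 237 to 587 and from 258 to 518. The count of higher effects shrank by more than 1.5-fold without EPZ5676 high replicate 2 (239), DMSO low replicate 2 (263) or EPZ5676 low replicate 1, 2 or 3 (248, 237 and 263). For lower effects this held without EPZ5676 high replicate 2 (258) or EPZ5676 low replicate 2 (286). Of the genes that rose in high cells 115 also rose in low cells, which is 17.2% of the high list and 24% of the low list. Of those that fell, 44 were shared (5.91% and 15.9%), and 55 of the genes that fell in high cells rose in low cells.

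Collagen, MAPK and pigment genes were among those that differed. In low cells 11 of the 23 collagens rose and 0 fell, with a median of 0.43, and the difference was called lower for 9. COL6A1 had 109 CPM in DMSO low and 137 CPM in EPZ5676 low libraries, a rise of 0.33 ± 0.05, against its fall of 0.92 ± 0.06 in high cells. LIF rose by 1.08 ± 0.08 in low cells, from 9.23 to 19.5 CPM, and fell by 0.64 ± 0.06 in high cells. MBP rose by 0.48 ± 0.05 in low and fell by 0.58 ± 0.05 in high cells. Of the 21 MAPK genes 10 had a lower effect in high cells, and of the 26 pigmentation genes 8 had a higher and 2 a lower one. For DCT the rise was larger in high cells by 0.82 ± 0.07 (edgeR adjusted p = 5.13e-08), although low cells had 1053 CPM to begin with. DNA replication genes had a median of 0.07 in high and -0.13 in low cells, and the effect was called higher in high cells for 11 of 40.

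Some genes rose in both kinds of cells. A2M rose by 1.2 ± 0.06 in high and 0.82 ± 0.06 in low cells, CYP26B1 by 1.13 ± 0.12 and 0.89 ± 0.12, ID3 by 0.86 ± 0.1 and 0.98 ± 0.1, and COL12A1 by 1.17 ± 0.12 and 1.03 ± 0.22. Of these 4, A2M alone passed the test of a difference (0.39 ± 0.08, edgeR adjusted p = 0.00533). EGFR rose by 0.72 ± 0.16 in low cells, from 2.79 to 4.59 CPM, and its effect was lower in high cells by 0.99 ± 0.18 (adjusted p = 0.00173). High and low cells were chosen by their EGFR level, so this difference is not a free measure of the drug's effect.

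**Figure D5:**
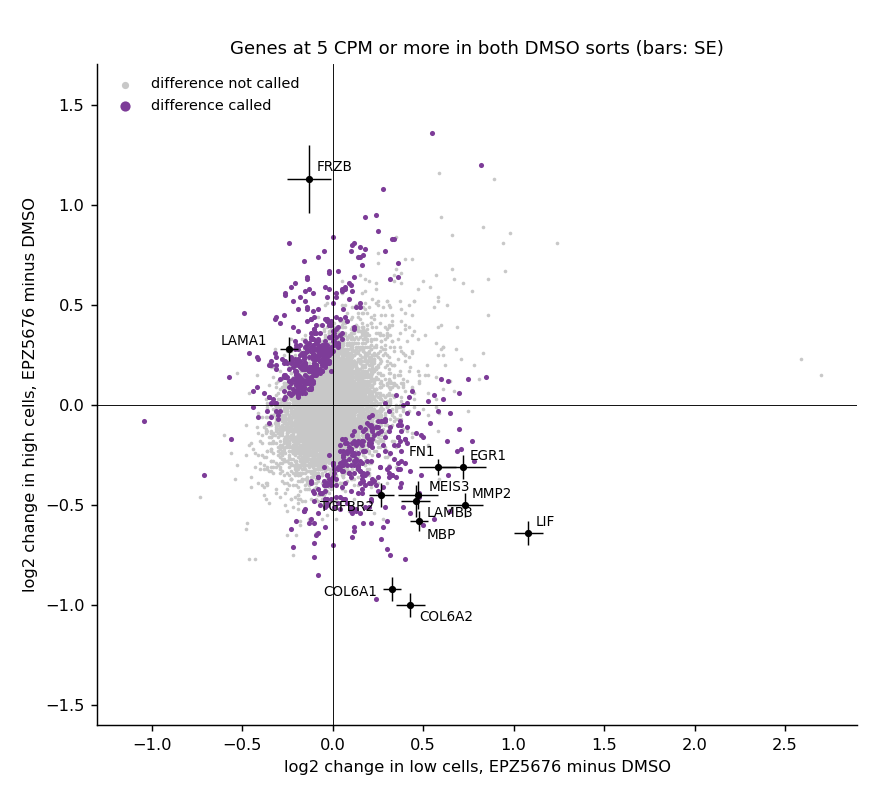
Log2 change with EPZ5676 in high cells (vertical) against that in low cells (horizontal) for the 10771 genes at 5 CPM or more in both DMSO groups, purple where the difference was called (689 genes), with SE bars on 12 labelled genes; 7 genes lie beyond the axes. LIF, COL6A1, COL6A2, MBP and MMP2 lie in the lower right quadrant, higher in low and lower in high cells.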

How the data were processed

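Raw counts of reads per Ensembl gene were deposited by the authors for 18 libraries. STAR, HTSeq and the hg19 build are named per the submitters' processing notes, with no versions, and the strand setting is not given in the sources used here. The 5 summary lines were kept out of library sizes and tests. Genes were named from NCBI tables (39699 IDs) or, where these gave no name, from GENCODE 29 (12827 IDs). The other 11151 of 63677 IDs, with 0.922% of counts, stayed unnamed.

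The 6 high libraries were fitted with edgeR 4.0.16 in R 4.3.3 (filterByExpr, TMM, robust quasi-likelihood, Benjamini-Hochberg at 0.05). The difference between high and low effects came from an interaction term over 12 libraries. SEs were derived from the F statistic. DESeq2 1.42.0 and limma 3.58.1 served as alternatives, and the code was tested on simulated data. There it found 79.7% of 1.5-fold, 80.3% of 2-fold and 98.4% of 4-fold changes. Of its calls 8.79% were false, above the threshold of 0.05. Total counts per library limit the precision of genes near 1 CPM.

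Genes were named by rule: NGFR, EGFR, DOT1L and MITF, the 12 largest called changes in each direction at 5 CPM or more without overlap, up to 4 called members with the smallest p from each of 41 lists, and up to 6 genes per direction for the difference. For the lists of DOT1L partners, pigmentation, melanocyte factors, resistance markers and other cell types, members that were not called could be named too. The members and lists were chosen with earlier results of these data known. Lists are described by counts and medians and were given no test. Promoter sequences are from RefSeq (GRCh38.p14), and coordinates on hg19 were not used. Results for some genes are not reported here.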

Additional observations from a re-analysis of the deposited data

Results flagged for a closer look

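For 24 named genes the effect of EPZ5676 differed between high and low cells, either with called changes in opposite directions or as one of the largest differences, by the interaction term of edgeR's quasi-likelihood test with 3 libraries per group. Calls in high cells are from the fit of 6 libraries, and those in low cells and of the difference from the fit of 12. In the fit of 12, the changes of EGR1, FN1, MLC1 and S100A3 in high cells were not called. Each value is the difference of the log2 change, high minus low.

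Matrix genes made up 6 of them. COL6A2 differed by -1.43 and COL6A1 by -1.24, and both fell in high cells and rose in low cells. FN1 (-0.89, 283 to 422 CPM in low cells), MMP2 (-1.23, 8.54 to 14.2 CPM) and LAMB3 (-0.93, 14 to 19.2 CPM) had the same pattern. LAMA1 had the opposite one, with a difference of 0.53 and a fall from 299 to 253 CPM in low cells.

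Signalling, cycle and lineage genes followed. LIF differed by -1.71, CDKN1A by -1.48, MBP by -1.06, EGR1 by -1.02, MEIS3 by -0.91 and TGFBR2 by -0.71, each lower in treated high cells and higher in treated low cells. For EGR1 the difference had an edgeR adjusted p of 0.0174, and its fall in high cells was not called without DMSO replicate 1 (0.0513) or EPZ5676 replicate 2 (0.0538).

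Higher effects in high cells were seen for TMC8 (1.31, with a rise in both), FRZB (1.26), SH2D5 (1.52), MOB3B (1.36), SPTB (1.26) and PRDM7 (1.91). The difference was lost for PRDM7 (1.64, adjusted p = 0.374) and SPTB (0.68, 0.541) without the libraries above 16% on no feature. Their rises in high cells were not called without DMSO replicate 1 or 3 or EPZ5676 replicate 1 or 2, nor that of PRDM7 without EPZ5676 replicate 3. PRDM7 has a near copy in PRDM9, so its read assignment is uncertain.

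The largest lower effects rest on very few counts in low cells, and the fitted value depends on the prior count. They were MLC1 (-3.91, from 0.03 to 0.415 CPM in low cells), FAIM2 (-3.08, 0.254 to 1.07 CPM), SHISAL1 (-2.68, 0.343 to 1.6 CPM), S100A3 (-2.66), G0S2 (-2.6, 0.0944 to 0.336 CPM) and SNAP25 (-2.54, 0.0662 to 0.253 CPM). The difference was lost in 7 of 20 alternative settings for G0S2, with adjusted p-values from edgeR's test of 0.0518 without EPZ5676 high replicate 2, 0.0738, 0.115 and 0.0574 without DMSO low replicate 1, 2 and 3, and 0.102 and 0.134 without EPZ5676 low replicate 1 and 3. For S100A3 it was lost without DMSO low replicate 1 (0.0911) or 2 (0.0824) or EPZ5676 low replicate 3 (0.165), and for SNAP25 without DMSO low replicate 3 (0.109) or EPZ5676 low replicate 1 (0.0564) or 2 (0.1). All 3 lost it without the libraries above 16%. In high cells alone, the fall of MLC1 was not called without any 1 library but DMSO replicate 2 (0.0502 to 0.268). That of G0S2 was not called without DMSO replicate 1 or any 1 EPZ5676 library (0.0528 to 0.0931), nor that of SHISAL1 without EPZ5676 replicate 2 (0.0722). The rise of S100A3 was not called without DMSO replicate 2 (0.0597) or EPZ5676 replicate 2 (0.0966) or 3 (0.109).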

How the results depend on the processing

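No named gene's called change reversed its direction under the alternatives run. The balance of calls did change sides, from 668 higher and 745 lower to 838 and 592 with library size alone, 950 and 809 with 12 libraries and 1099 and 919 with 17. The counts in high cells (668 higher, 745 lower) became 1099 higher with 17 libraries in the spread, 354 and 189 with all 18, and 235 and 139 without the libraries above 16% on no feature. With single libraries left out they ran from 295 to 917 and from 294 to 1010. The share of calls that were higher was 65.2% with 18 libraries and 62.8% without those above 16%. Counts at 2-fold or more (68 higher, 38 lower) were 13 and 10 among genes at 5 CPM or more, 44 higher with DESeq2, 108 higher with 17 libraries, 5 lower with 18 libraries and 11 lower without the libraries above 16%, and ran from 43 to 84 and from 22 to 44 with single libraries left out. The difference between high and low effects (432 and 431) gave 101 and 117 without those libraries, a setting chosen after seeing the data, and 237 to 587 and 258 to 518 with single libraries left out. The cause was not tested, apart from fewer samples or genes entering by construction. Replicate numbers are shared by the groups, and same-numbered high libraries did not deviate together (correlations -0.076, -0.14 and -0.34). Libraries alike in no-feature share did, with 0.256 for DMSO replicate 3 and EPZ5676 replicate 2. The correlation was 0.193 for DMSO replicate 1 and EPZ5676 replicate 3. The check therefore cannot tell whether equal numbers mark a shared culture or batch. A replicate block gave 562 higher and 634 lower, and 398 and 423 for the difference. Of 145 named called genes, 134 kept their call under 7 settings of scaling, filter and tool, but 82 lost it without the libraries above 16%, 89 with 18 libraries and 118 under at least 1 alternative. With 18 libraries 0 collagens, 0 TGF-beta genes and 2 MAPK genes fell. Genes near 1 CPM are limited by depth.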

Other observations

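A few secreted and YAP-linked genes had large changes that did not pass the threshold, and they were chosen after their values were seen. DKK1, a secreted WNT inhibitor, was at 8.2, 7.18 and 10.3 CPM with DMSO and at 57.4, 75 and 27.3 CPM with EPZ5676 in high cells (log2 2.65 ± 0.5, edgeR adjusted p = 0.0575). THBS1, a matricellular protein, gave 575, 499 and 563 CPM against 1045, 1100 and 737 CPM (adjusted p = 0.0725). AMOTL2, a YAP target, gave 54.4, 54.2 and 64.2 CPM against 108, 122 and 79.7 CPM (adjusted p = 0.0597), and the chemokine CXCL1 8.32, 7.33 and 8.11 CPM against 21.2, 24 and 11.2 CPM (adjusted p = 0.0942). In all 4 the groups did not overlap, as in 4317 of the 16621 genes tested, and EPZ5676 replicate 3 was the lowest treated library. It was also the treated library with the smallest no-feature share, 12.8% against 18.88% and 21.17%, and the part of this in the result was not tested.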
